A study of Mus musculus with 8 samples.

Results

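The 36 genes described here encode aminoacyl-tRNA synthetases, the enzymes that join each amino acid to its transfer RNA. They were taken by gene symbol from the 32499 rows of the count table, and all 36 symbols were found: 20 genes of enzymes of the cytosol and 16 of enzymes imported into mitochondria, whose symbols end in 2. RNA-seq was done on neural progenitor cells, sorted with the dye NeuroFluor CDr3 from neural tubes of C57BL/6 mouse embryos at embryonic day 14. There were 4 libraries labelled 53BP1KO (KO-labelled below) and 4 labelled Ctrl. Per the labels' protocols, the KO embryos came from Trp53bp1tm1Jc females mated to males that carried in-frame deletions of 53bp1 made with Cas9, and the embryos compared with them were wild-type. The protocols do not say whether a library's cells were used at once or after culture in differentiation medium, nor whether the replicates came from separate embryos, so the spread behind each p-value is that of these 4 libraries a group and may be only technical. They also do not say which deletion a given KO library carried.

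Charging is the step at which the genetic code is read into protein: each synthetase recognises its amino acid and its tRNA, and many also remove a wrongly attached amino acid. The enzymes fall into class I and class II, whose catalytic domains are unrelated, and several cytosolic members sit together in a multi-synthetase complex. Mitochondria translate their own messages and import a separate set of synthetases encoded by other nuclear genes. Glycyl- and lysyl-tRNA synthetase are exceptions, since Gars and Kars each supply both compartments, and mitochondrial glutamine tRNA is charged with glutamate by the Ears2 product and then amidated, so that no mitochondrial partner of Qars is known. Many cytosolic synthetase genes are known targets of ATF4, the transcription factor of the integrated stress response, which acts when amino acids are short or protein folding is disturbed.

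The libraries held between 11081419 and 24339621 counts, and member counts ran from 28 to 34313. The level of the targeted gene, Trp53bp1, overlapped between the groups, with 27.1 ± 6.36 CPM (counts scaled by library size and TMM factor) in KO-labelled libraries and 26.8 ± 0.349 CPM in Ctrl libraries (SD, n = 4 each; log2 fold change 0.01 ± 0.14 SE, edgeR adjusted p = 0.96). In-frame deletions need not lower a gene's count. Whether they, or the Trp53bp1tm1Jc allele of the females, account for this overlap was not tested. The counts of Trp53bp1 alone thus do not show the genotype. The Y-linked gene Ddx3y had 579 to 1064 counts in KO-labelled libraries and 0 in every Ctrl library, and Xist had 9 to 16 counts in KO-labelled and 23853 to 26134 in Ctrl libraries, so genotype and sex cannot be told apart in any difference below. The progenitor marker Fabp7, whose protein the dye binds, stood at 7793 ± 1269 CPM in KO-labelled and 7591 ± 1014 CPM in Ctrl libraries. Of 10 progenitor markers 4 rose and 3 fell (median log2 fold change 0.20), beside 16.1% and 13.9% of all genes tested. Sox2, Pax6, Hes5 and Msi1 rose, Msi1 most (0.87, SE 0.14) and Sox2 by 0.78 (SE 0.10), while Nes fell by 0.90 (SE 0.13), Prom1 by 0.63 (SE 0.18) and Vim by 0.39 (SE 0.09). Their summed level, most of it Fabp7, was 7849 to 11141 CPM in KO-labelled and 8475 to 10775 CPM in Ctrl libraries.

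Most cytosolic synthetase genes were higher in the KO-labelled libraries, and most mitochondrial ones did not pass the test. Of 20 cytosolic genes 15 rose, none fell and 5 did not pass. Of 16 mitochondrial genes 1 rose, 2 fell and 13 did not pass. A rise or fall here is an edgeR quasi-likelihood p under 0.05 once adjusted by Benjamini-Hochberg over 15021 genes, of which 16.1% passed as rises and 13.9% as falls. The median log2 fold change was 1.23 for the cytosolic genes and -0.02 for the mitochondrial genes, beside 0.00 for all genes tested. Of the cytosolic genes 12 rose by more than 2-fold, as did 3.95% of all genes tested, and no mitochondrial gene did. No member fell by more than 2-fold, as 2.70% of all genes did. All 36 genes passed the filter on low counts.

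**Figure D1:**
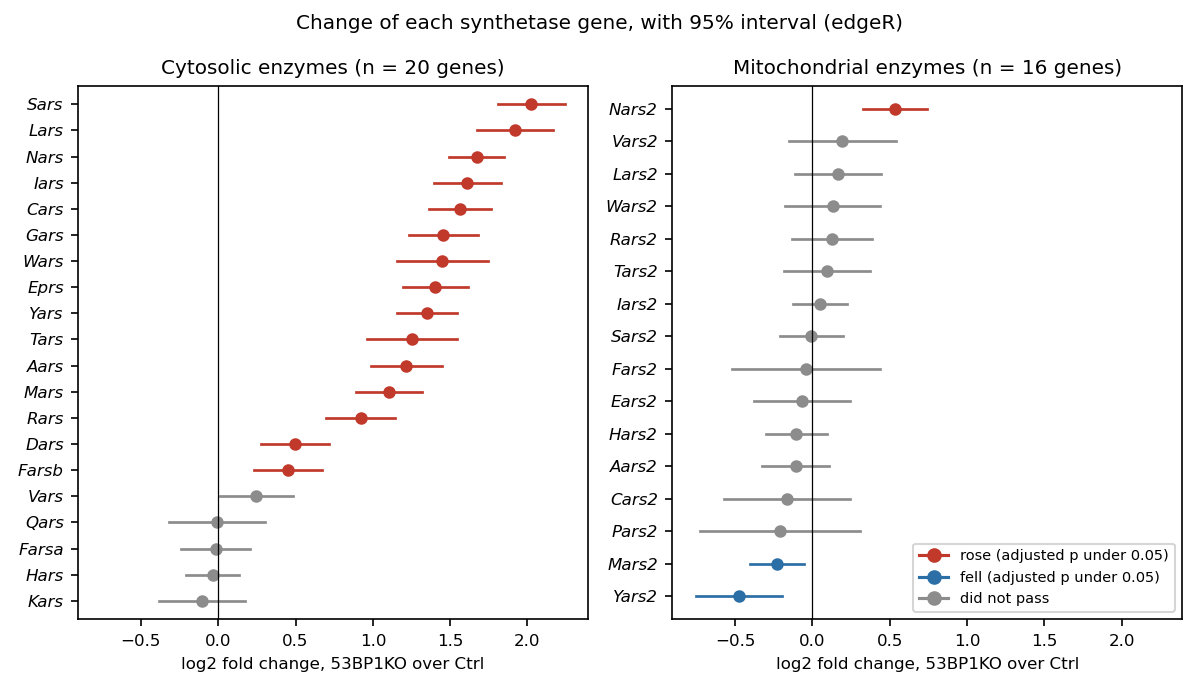
Log2 fold change of each synthetase gene, 53BP1KO over Ctrl (x axis), with its 95% interval from edgeR, for 20 cytosolic genes on the left and 16 mitochondrial genes on the right. Red marks genes that rose, blue genes that fell and grey genes that did not pass; the cytosolic genes reach 2.02 and the mitochondrial genes lie between -0.47 and 0.53.

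Summed over each class, cytosolic synthetase transcripts stood at 7469 ± 679 CPM in KO-labelled libraries and 3243 ± 253 CPM in Ctrl libraries (SD, n = 4 each), a ratio of 2.30. The mitochondrial sum was 632 ± 13.8 CPM in KO-labelled and 637 ± 16.6 CPM in Ctrl libraries, a ratio of 0.992. In these bulk samples, a change in the share of cells that express a gene and a change in RNA per cell cannot be told apart.

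Serine, leucine, asparagine, isoleucine and cysteine enzymes had the largest rises. Sars, on chromosome 3, encodes cytosolic seryl-tRNA synthetase and had 318, 253, 297 and 311 CPM in KO-labelled libraries 1 to 4, against 73.7, 63.99, 72.3 and 79.99 CPM in Ctrl libraries 1 to 4. No library of one group reached the other, and the log2 fold change was 2.02 ± 0.10 (SE; edgeR adjusted p = 3.68e-09), which ranked 123 from the top among all genes tested. Lars, on chromosome 18, encodes leucyl-tRNA synthetase, which is also known as a leucine sensor for mTORC1, and had 887, 685, 831 and 863 CPM in KO-labelled libraries 1 to 4, against 199, 208, 198 and 259.8 CPM in Ctrl libraries 1 to 4. All KO-labelled libraries again lay above all Ctrl libraries, with Ctrl 4 the highest of its group and a log2 fold change of 1.92 ± 0.11 (SE; edgeR adjusted p = 2.61e-08).

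Nars, on chromosome 18, encodes asparaginyl-tRNA synthetase and had 167, 149, 171 and 163 CPM in KO-labelled libraries 1 to 4, against 50.8, 50.1, 50.9 and 52.4 CPM in Ctrl libraries 1 to 4. The Ctrl libraries were within a few CPM of each other, and the log2 fold change was 1.67 ± 0.08 (SE; edgeR adjusted p = 3.19e-09). Iars, on chromosome 13, encodes isoleucyl-tRNA synthetase and had 680.0, 536, 619 and 553 CPM in KO-labelled libraries 1 to 4, against 211, 177, 186 and 208 CPM in Ctrl libraries 1 to 4, a log2 fold change of 1.61 ± 0.10 (SE; edgeR adjusted p = 4.60e-08). KO-labelled 1 was the highest and KO-labelled 2 the lowest of the KO-labelled libraries, and the groups did not overlap. Cars, on chromosome 7, encodes cysteinyl-tRNA synthetase and had 76.8, 76.5, 68.2 and 67.3 CPM in KO-labelled libraries 1 to 4, against 25.5, 22.96, 25.5 and 23.7 CPM in Ctrl libraries 1 to 4, a log2 fold change of 1.56 ± 0.09 (SE; edgeR adjusted p = 2.75e-08), with all KO-labelled libraries above all Ctrl libraries.

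Gars, which supplies glycyl-tRNA synthetase to both the cytosol and mitochondria, rose as well. On chromosome 6, it had 1350.4, 1054, 1393 and 1319.7 CPM in KO-labelled libraries 1 to 4, against 462, 442, 441 and 521 CPM in Ctrl libraries 1 to 4. The groups did not overlap and the log2 fold change was 1.46 ± 0.10 (SE; edgeR adjusted p = 1.68e-07). Kars, on chromosome 8, supplies lysyl-tRNA synthetase to both compartments as well, but had 24.2, 20.3, 23.2 and 22.98 CPM in KO-labelled libraries 1 to 4, against 30.8, 19.9, 23.7 and 23.2 CPM in Ctrl libraries 1 to 4. Its groups overlapped, with both the highest and the lowest value in Ctrl libraries, and the log2 fold change was -0.10 (95% interval -0.38 to 0.17) and did not pass (edgeR adjusted p = 0.591).

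The other cytosolic genes that rose were Wars, Eprs, Yars, Tars, Aars, Mars, Rars, Dars and Farsb. Eprs, on chromosome 1, encodes the bifunctional enzyme for glutamate and proline, and its mean level was 1345 ± 132 CPM in KO-labelled and 508 ± 43.7 CPM in Ctrl libraries, with a log2 fold change of 1.40 ± 0.10 (SE; edgeR adjusted p = 1.46e-07). Wars, for tryptophan, is one of the lowest-count cytosolic members at 19.1 ± 2.51 CPM in KO-labelled and 6.99 ± 0.947 CPM in Ctrl libraries, and rose by 1.45 (SE 0.14). The tyrosine enzyme gene Yars rose by 1.35, the threonine enzyme gene Tars by 1.25, the alanine enzyme gene Aars by 1.22 and the methionine enzyme gene Mars by 1.10, with SE between 0.09 and 0.14. Rises were smaller in Rars, for arginine (0.92, SE 0.10), and in Dars, for aspartate (0.49, SE 0.10). Mars shares 68 bases of exon with Ddit3 on the opposite strand in GENCODE M21, and Ddit3 itself rose (2.81); Aars shares 1326 exon bases with Exosc6 on the same strand. The strand setting of the counting is not given in the sources used here, so reads of such shared bases are uncertain.

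All 15 cytosolic genes that rose had every KO-labelled library above every Ctrl library, as did 15.9% of all genes tested (29.9% had no overlap in either direction). KO-labelled 2, the library with the fewest counts, was the lowest of the KO-labelled libraries for 11 of these 15 genes, and Ctrl 4 was the highest Ctrl library for 12. The class median of log2 CPM relative to the Ctrl mean was 1.41, 1.08, 1.20 and 1.22 in KO-labelled libraries 1 to 4, against 0.03, -0.08, -0.05 and 0.11 in Ctrl libraries 1 to 4. The same median for the mitochondrial genes was 0.05, 0.03, -0.06 and -0.03 in KO-labelled libraries, against -0.07, -0.02, -0.04 and -0.00 in Ctrl libraries.

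**Figure D2:**
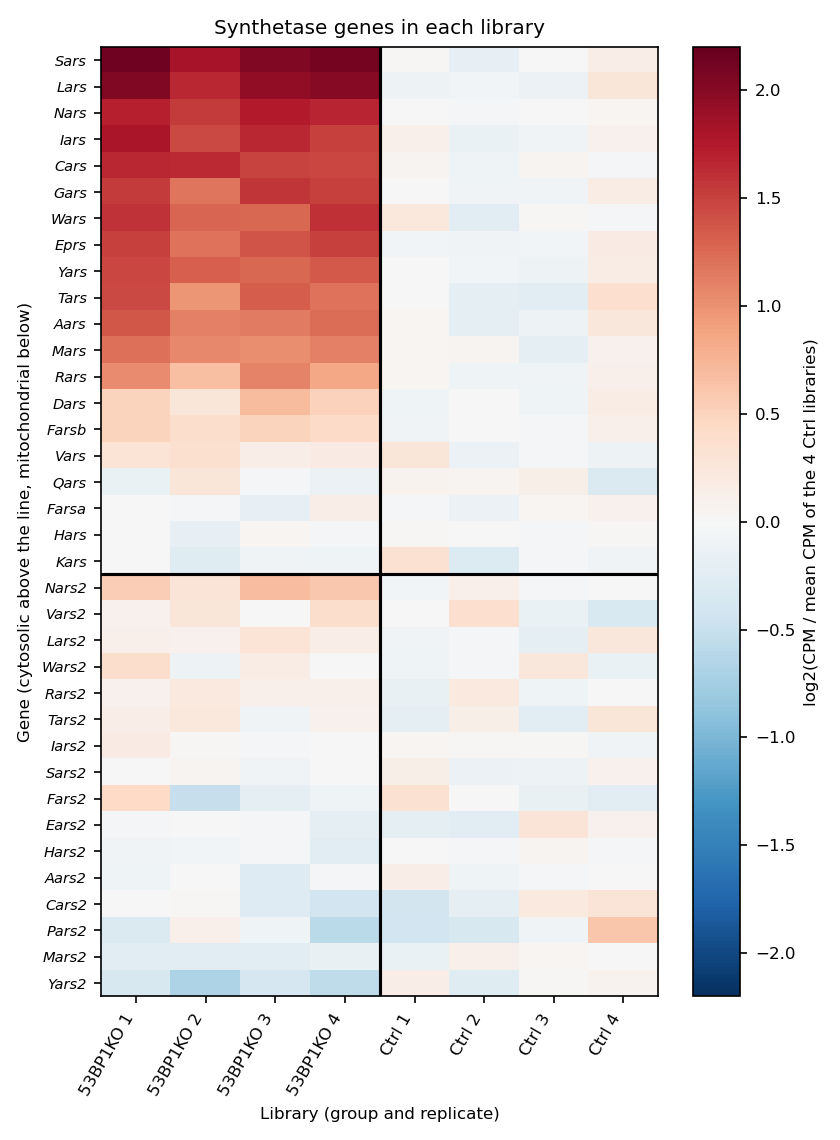
Colour shows log2 of the CPM of each gene (rows) in each library (columns, KO-labelled to the left of the vertical line) over the mean CPM of the 4 Ctrl libraries. The 15 cytosolic genes that rose lie above the Ctrl mean in all KO-labelled libraries, but only faintly in Dars (0.26 to 0.70) and Farsb (0.39 to 0.50). The rows below the horizontal line, the mitochondrial genes, are mostly pale in both groups.

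Promoter sequence was examined because 15 cytosolic genes rose together and many of them are known ATF4 targets. ATF4 binds with C/EBP partners to a composite element whose core was searched as TGATGNAA, with N any base, on both strands of RefSeq promoter windows of 300 bases (250 before the start site and 50 after it, GRCm38.p6). Windows were found for 27 of the 36 genes, Mars under its RefSeq symbol Mars1. No window was matched for Cars, Hars, Lars, Nars, Rars, Vars, Wars, Hars2 or Pars2. The motif was in 5 of the 13 cytosolic genes with a window, namely Aars, Gars, Iars, Tars and Yars, and in 0 of the 14 mitochondrial genes with one, beside 3.97% of 32851 windows of all genes. Of the 13 cytosolic genes, it was in 5 of the 10 that rose and in 0 of the 3 that did not pass. The motif was the only one searched and was chosen with these results known, a match is a description and not a shown binding site, and its absence from a window says nothing about the factor.

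Stretches of the windows of the 5 genes with a match are shown first, then that of Sars, the cytosolic gene with the largest rise, and that of Nars2, the mitochondrial gene that rose, neither of which holds one. Each runs 5′ to 3′ on the strand of its gene, from 150 bases before the RefSeq start site to 30 after it, with matches in capitals (a match on the opposite strand reads as the reverse complement). Coordinates are of GRCm38.p6, a later build than the mm9 and NCBIM37 named for the counts.
Aars, chr8:111033692-111033871, plus strand: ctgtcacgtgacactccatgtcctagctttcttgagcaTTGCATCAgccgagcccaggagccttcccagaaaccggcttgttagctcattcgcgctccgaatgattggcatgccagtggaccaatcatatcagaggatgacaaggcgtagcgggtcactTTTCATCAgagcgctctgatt
Gars, chr6:55037851-55038030, plus strand: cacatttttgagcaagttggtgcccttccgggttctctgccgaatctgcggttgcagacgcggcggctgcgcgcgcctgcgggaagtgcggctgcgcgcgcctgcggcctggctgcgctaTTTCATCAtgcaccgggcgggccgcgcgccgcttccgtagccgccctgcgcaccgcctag
Iars, chr13:49681980-49682159, plus strand: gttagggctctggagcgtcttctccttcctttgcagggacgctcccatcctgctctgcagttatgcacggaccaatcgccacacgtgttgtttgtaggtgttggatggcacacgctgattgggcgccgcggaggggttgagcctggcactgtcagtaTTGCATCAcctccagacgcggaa
Tars, chr15:11399629-11399808, minus strand: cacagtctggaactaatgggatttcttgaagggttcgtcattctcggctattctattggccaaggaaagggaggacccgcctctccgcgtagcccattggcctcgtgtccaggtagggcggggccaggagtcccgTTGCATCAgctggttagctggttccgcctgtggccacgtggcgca
Yars, chr4:129189753-129189932, plus strand: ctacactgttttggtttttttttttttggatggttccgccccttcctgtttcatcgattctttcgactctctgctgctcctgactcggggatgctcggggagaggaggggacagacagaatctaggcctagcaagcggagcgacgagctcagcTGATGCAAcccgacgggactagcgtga
Sars, chr3:108445230-108445409, minus strand: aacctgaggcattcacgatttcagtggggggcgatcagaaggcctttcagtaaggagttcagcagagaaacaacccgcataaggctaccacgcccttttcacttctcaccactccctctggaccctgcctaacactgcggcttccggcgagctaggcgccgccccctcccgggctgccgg
Nars2, chr7:96951377-96951556, plus strand: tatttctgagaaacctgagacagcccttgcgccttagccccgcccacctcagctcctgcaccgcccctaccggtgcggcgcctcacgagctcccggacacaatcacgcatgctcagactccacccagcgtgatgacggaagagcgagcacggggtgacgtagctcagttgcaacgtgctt

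Aars held matches 112 to 105 bases before its start site and at bases 10 to 17 after it, both on the opposite strand. The single match lay 30 to 23 bases before the start in Gars and 15 to 8 before it in Tars, at bases 8 to 15 after it in Iars, and at bases 4 to 11 after it, on the strand of the gene, in Yars. All 5 genes rose by more than 2-fold, with log2 fold changes from 1.22 (Aars) to 1.61 (Iars). Sars (2.02) and Eprs (1.40) rose by more than Aars with no match in the window.

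**Figure D3:**
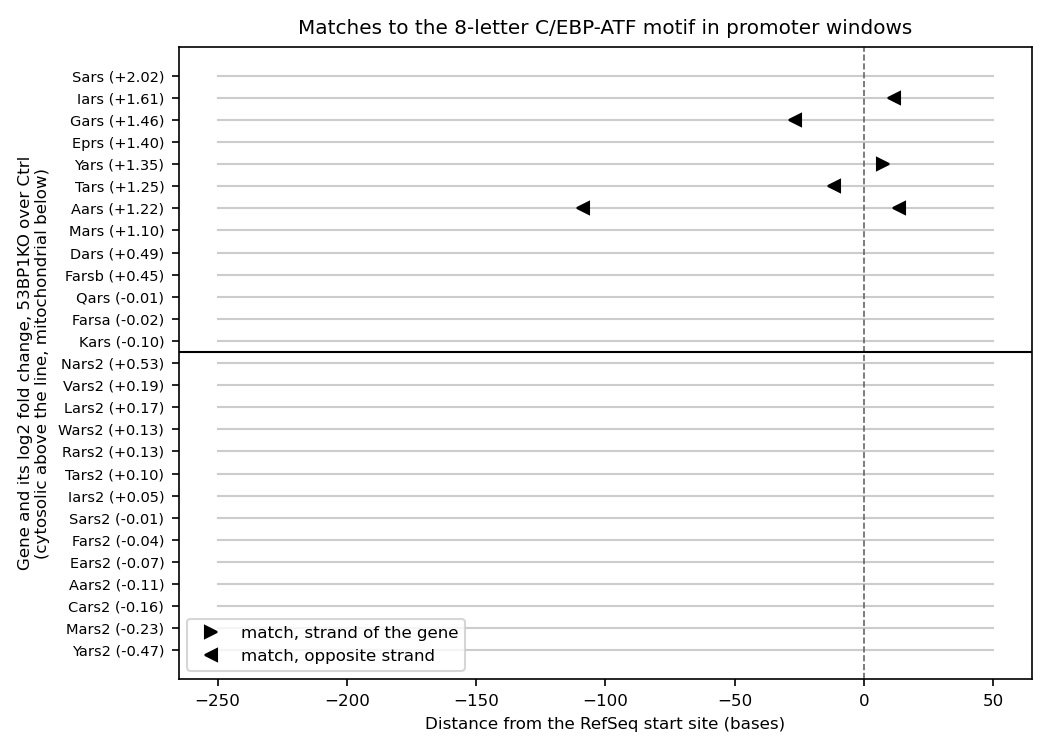
Each grey line is a promoter window of one gene, from 250 bases before to 50 after the RefSeq start site (x axis), with cytosolic genes above the black line and mitochondrial genes below, ordered by log2 fold change. Triangles mark the 6 matches to the 8-letter motif, which lie in 5 cytosolic genes, 5 of them within 30 bases of the start site.

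The 5 cytosolic genes that did not pass were Vars, Qars, Farsa, Hars and Kars. Qars, on chromosome 9, encodes glutaminyl-tRNA synthetase and was the cytosolic gene nearest to no difference, with 7.68, 10.3, 8.40 and 7.80 CPM in KO-labelled libraries 1 to 4, against 8.94, 8.90, 9.35 and 6.85 CPM in Ctrl libraries 1 to 4. Its groups overlapped, and the log2 fold change was -0.01 (95% interval -0.32 to 0.30). Hars, for histidine, had a log2 fold change of -0.04 (95% interval -0.21 to 0.14), the narrowest interval of the 5, at a mean of 222 ± 14.5 CPM in KO-labelled and 227 ± 5.32 CPM in Ctrl libraries. Vars, for valine, had 0.25 (edgeR adjusted p = 0.104), and passed without Ctrl 1 (0.34, edgeR adjusted p = 0.0232) and with limma voom (0.29, adjusted p = 0.0229).

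Farsa and Farsb encode the alpha and beta subunits of a single enzyme, phenylalanyl-tRNA synthetase, and only the beta subunit gene passed. Farsb, on chromosome 1, had 19.9, 18.4, 19.8 and 18.8 CPM in KO-labelled libraries 1 to 4, against 13.4, 14.1, 13.7 and 15.2 CPM in Ctrl libraries 1 to 4, a log2 fold change of 0.45 ± 0.10 (SE; edgeR adjusted p = 0.00387). Farsa, on chromosome 8, had 28.3, 27.8, 25.1 and 31.8 CPM in KO-labelled libraries 1 to 4, against 28.3, 26.1, 29.5 and 30.7 CPM in Ctrl libraries 1 to 4, and its groups overlapped, with a log2 fold change of -0.02 (95% interval -0.24 to 0.20). The log2 ratio of Farsb to Farsa counts was -0.76 to -0.34 in KO-labelled libraries and -1.11 to -0.89 in Ctrl libraries, a difference of 0.47 (exact permutation test, two-sided, p = 0.0286, the smallest that 4 against 4 libraries can give). That ratio was chosen after the values were seen.

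Genes that rose were found in both structural classes, and inside and outside the multi-synthetase complex. Of 9 genes of class I enzymes 7 rose (median log2 fold change 1.35), and of 10 genes of class II enzymes 7 rose (median 0.86), Eprs being both. Of the 8 members of the multi-synthetase complex 6 rose (median 1.01), and of the 12 others 9 rose (median 1.3). These subsets were not tested against each other. Of all genes tested 16.1% rose, with a median of 0.00. The multi-synthetase complex has 3 scaffold genes, of which 1 rose (median -0.05), too few to compare with that share. Aimp1 rose by 0.33 (SE 0.09, edgeR adjusted p = 0.0143). Aimp2 had -0.09 (SE 0.16) and Eef1e1 -0.05 (SE 0.12), neither past the threshold.

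Among the mitochondrial genes, Nars2 was the one that rose. On chromosome 7, it encodes mitochondrial asparaginyl-tRNA synthetase and had 94.3, 79.4, 104 and 97.5 CPM in KO-labelled libraries 1 to 4, against 61.9, 70.1, 62.9 and 64.7 CPM in Ctrl libraries 1 to 4. The groups did not overlap, and the log2 fold change was 0.53 ± 0.10 (SE; edgeR adjusted p = 8.78e-04). Yars2, on chromosome 16, for mitochondrial tyrosine charging, had 10.1, 8.10, 10.03 and 8.76 CPM in KO-labelled libraries 1 to 4, against 14.3, 10.7, 13.1 and 13.6 CPM in Ctrl libraries 1 to 4. All KO-labelled libraries lay below all Ctrl libraries, and Yars2 fell by 0.47 on the log2 scale (SE 0.13, edgeR adjusted p = 0.0139).

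Mars2, on chromosome 1, for mitochondrial methionine charging, had 201, 198, 198 and 210.2 CPM in KO-labelled libraries 1 to 4, against 213, 254, 242 and 236 CPM in Ctrl libraries 1 to 4, also without overlap. Yars2, Mars2 and Hars2 were the 3 mitochondrial genes with every KO-labelled library below every Ctrl library, as 13.9% of all genes were. Mars2 fell by 0.23 (SE 0.08) with an adjusted p of 0.0475 by edgeR, and that call was lost without KO-labelled 1, 2, 3 or 4, or without Ctrl 2 or 3 (adjusted p between 0.0673 and 0.139), which leaves 1 mitochondrial gene lower. Sars2, on chromosome 7, was the mitochondrial gene nearest to no difference, with 38.5, 39.9, 36.5 and 37.9 CPM in KO-labelled libraries 1 to 4, against 41.9, 35.1, 35.5 and 40.9 CPM in Ctrl libraries 1 to 4. Its groups overlapped and the log2 fold change was -0.01 (95% interval -0.21 to 0.20), where its cytosolic counterpart Sars had the largest rise of the 36.

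The other 12 mitochondrial genes had log2 fold changes between -0.21 (Pars2, for proline) and 0.19 (Vars2, for valine), with edgeR adjusted p from 0.364 to 0.907. Iars2, for isoleucine, was the best measured of them, at 148 ± 9.09 CPM in KO-labelled and 143 ± 5.58 CPM in Ctrl libraries and a log2 fold change of 0.05 (95% interval -0.12 to 0.22). It shares 2034 exon bases with Rab3gap2 on the opposite strand. For Pars2 and Fars2, with means under 5 CPM in both groups, the intervals were wide: -0.73 to 0.30 for Pars2 and -0.52 to 0.44 for Fars2. Hars2 had -0.10 and no overlap between the groups (29.5 ± 1.91 CPM in KO-labelled and 31.7 ± 0.848 CPM in Ctrl libraries), but did not pass (edgeR adjusted p = 0.426). Hars2 and Hars lie head to head and share 195 exon bases on opposite strands.

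Whether the cytosolic and mitochondrial enzyme of one amino acid responded differently was tested on the ratio of their counts within each library, which no scaling of libraries can move. There were 13 pairs of matching names, and Eprs was set against Ears2 and Pars2, and Farsa and Farsb each against Fars2, 17 ratios in all, of which those that share a gene are not independent. The ratio was higher in every KO-labelled than in every Ctrl library in 13 of the 17. For these 13, the exact two-sided permutation test gave p = 0.0286, the smallest that 4 against 4 libraries allow. After Benjamini-Hochberg adjustment over the 17 ratios this p was 0.0374. The adjusted value is set by how many ratios reach the smallest p, and says nothing further about any single pair.

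The largest difference was in serine: the log2 ratio of Sars to Sars2 was 3.05, 2.67, 3.02 and 3.03 in KO-labelled libraries 1 to 4, against 0.81, 0.87, 1.02 and 0.97 in Ctrl libraries 1 to 4, a difference of 2.02 (SE 0.10). Tyrosine, leucine and cysteine followed, at 1.83 (SE 0.12), 1.75 (SE 0.09) and 1.70 (SE 0.18). In asparagine, where both genes rose, the difference was 1.14 (SE 0.06). In methionine the mitochondrial gene had the higher count in both groups, and the log2 ratio of Mars to Mars2 was -1.85, -1.99, -2.01 and -2.01 in KO-labelled libraries, against -3.10, -3.34, -3.55 and -3.20 in Ctrl libraries. These counts are not scaled by length, and Mars2 has 11294 exon bases against 2963 in Mars. Per kilobase of exon, Mars had 17.4 CPM and Mars2 17.9 CPM in KO-labelled libraries. In Ctrl libraries Mars had 8.12 and Mars2 20.9 CPM per kilobase.

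The 4 ratios that did not pass were Hars to Hars2 (0.07, SE 0.08, exact permutation p = 0.371), Vars to Vars2 (0.04, SE 0.20, p = 0.886), Farsa to Fars2 (0.06, SE 0.25, p = 0.83) and Farsb to Fars2 (0.53, SE 0.24, p = 0.0857). Of these 4 the Hars ratio had the smallest SE, and the ratios with Fars2, which had 28 counts in KO-labelled 2, had the largest.

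**Figure D4:**
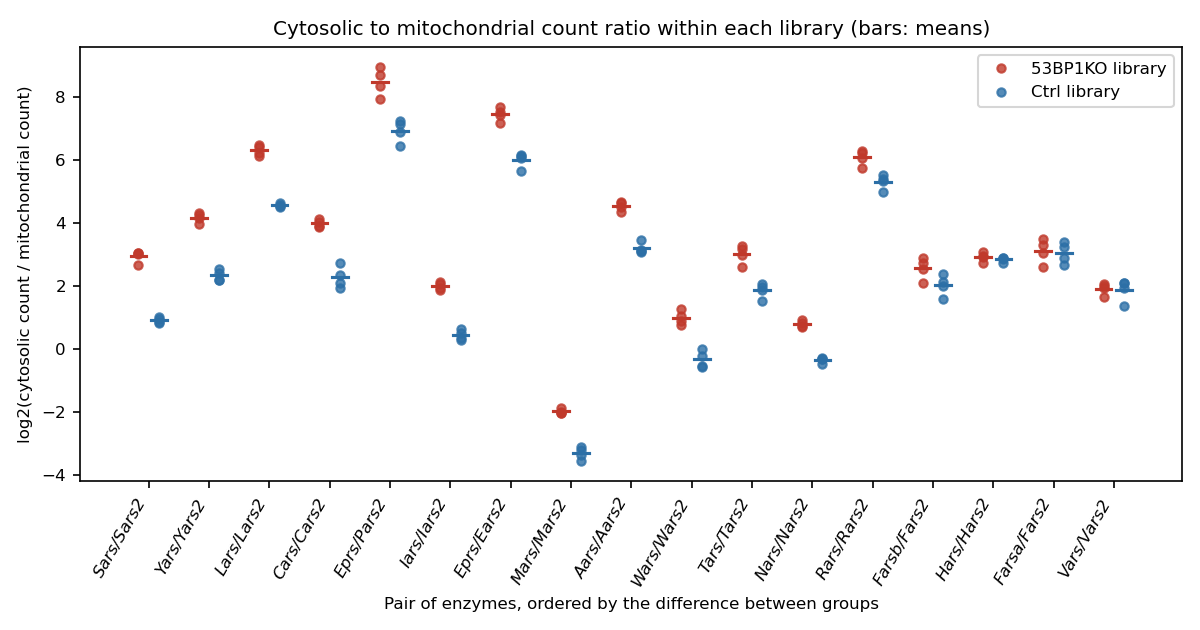
Points are log2 ratios of the cytosolic to the mitochondrial gene's count in single libraries, KO-labelled in red left of Ctrl in blue, with bars at the means, for 17 pairs ordered by the difference between groups. The colours separate in 13 pairs and overlap in Farsb/Fars2, Hars/Hars2, Farsa/Fars2 and Vars/Vars2.

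Per kilobase of exon (GENCODE M21, all exons of a gene joined), the cytosolic enzymes spanned a wide range of levels. Gars had 538 CPM per kilobase in KO-labelled libraries and 196 in Ctrl libraries. Dars had 301 in KO-labelled and 214 in Ctrl libraries, so that Gars stood above Dars in KO-labelled libraries and next to it in Ctrl libraries. Qars and Wars were the lowest cytosolic members, Qars at 3.05 in KO-labelled and 3.04 in Ctrl libraries and Wars at 6.64 in KO-labelled and 2.44 in Ctrl libraries. No mitochondrial member exceeded 22.6 CPM per kilobase in either group's mean, and the lowest was Pars2 at 1.24 in KO-labelled and 1.43 in Ctrl libraries. How reads that match several places were counted is not given in the sources used here, which can lower the level of genes with copies elsewhere.

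**Figure D5:**
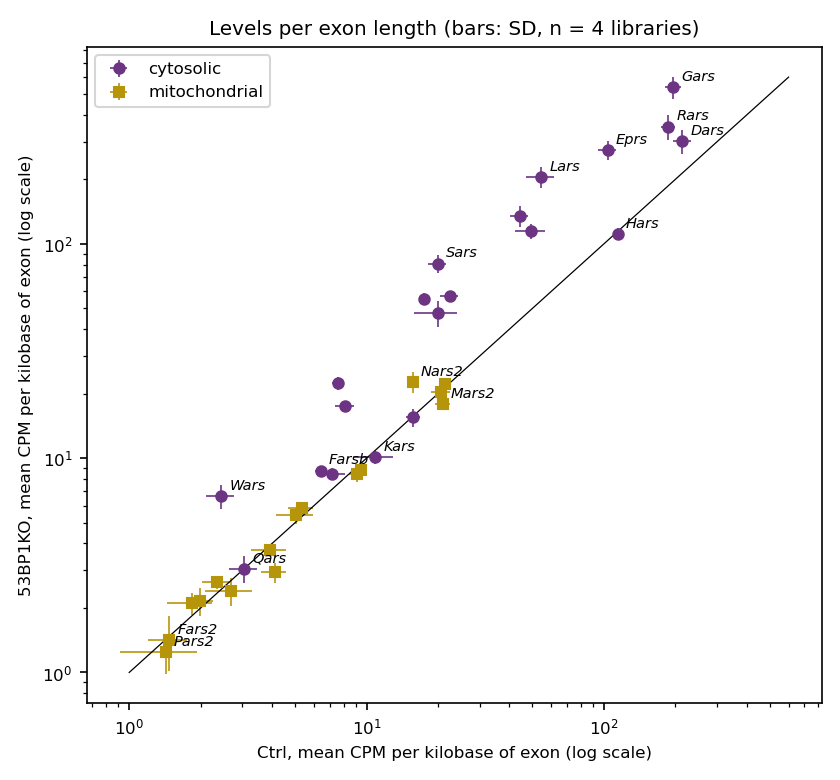
Mean level per kilobase of exon in KO-labelled libraries (y axis) against Ctrl libraries (x axis), both on log scales, with SD bars over 4 libraries and the line of equal levels. Most cytosolic genes (circles) lie above the line, whereas Qars, Hars and Kars and most mitochondrial genes (squares) lie near it.

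Genes of the neighbouring steps of tRNA supply and translation went both ways, as did all genes tested, of which 16.1% rose and 13.9% fell. Of 19 genes of tRNA processing and export 3 rose (15.8%) and 2 fell (10.5%), with a median of -0.07. Xpot, the exporter of tRNA from the nucleus, rose most, with 1028 ± 79.9 CPM in KO-labelled and 464 ± 26.9 CPM in Ctrl libraries and a log2 fold change of 1.15 ± 0.09 (SE; edgeR adjusted p = 3.63e-07). Pop1, a subunit of RNase P, fell by 0.70 (SE 0.13), and Elac1, a tRNA 3′ processing enzyme, rose by 0.47 (SE 0.12). Of 15 genes of RNA polymerase III, which transcribes tRNA genes, 3 rose and 3 fell (20% each, median 0.13). The alternative subunits Polr3g and Polr3gl went opposite ways, as Polr3g fell by 0.75 (SE 0.13) and Polr3gl rose by 0.62 (SE 0.17) on the log2 scale, and Bdp1, a subunit of its initiation factor, fell by 0.47 (SE 0.10).

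Cytosolic elongation factors bring charged tRNA to the ribosome and move it on. Of their 6 genes none rose and 1 fell (16.7%), beside 16.1% and 13.9% of all genes tested. That gene was Eef1d, which fell by 0.29 (SE 0.10), and the median of the list was -0.19. Of 7 genes listed under tRNA proofreading and release 2 rose (28.6%) and 1 fell (14.3%), with a median of -0.07. That list includes Tarsl2, a synthetase gene that is not one of the members. Prorsd1 rose by 0.74 (SE 0.19), Dtd2, which removes wrongly attached residues from tRNA, by 0.35 (SE 0.11), and the peptidyl-tRNA hydrolase gene Ptrh2 fell by 0.48 (SE 0.16). Tarsl2, a second cytosolic threonyl-tRNA synthetase gene, had -0.22 (SE 0.09, edgeR adjusted p = 0.0888), beside the rise of 1.25 in Tars.

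On the mitochondrial side, none of 4 genes of tRNA amidation and formylation passed in either direction, of which Gatc, a subunit of the amidase, was the most abundant at 21.01 ± 2.30 CPM in KO-labelled and 17.7 ± 1.92 CPM in Ctrl libraries (log2 fold change 0.25, SE 0.12). Of 8 mitochondrial translation factor genes tested 2 rose, the recycling factor gene Mrrf by 0.73 (SE 0.12) and the initiation factor gene Mtif2 by 0.45 (SE 0.13), and none fell (median 0.24). Of 79 mitochondrial ribosomal protein genes tested 9 rose and 4 fell (median 0.06), with pseudogenes of these symbols included. The rises were 25% of the translation factor genes and 11.4% of the ribosomal protein genes, beside 16.1% of all genes tested. Falls were 5.06% of the ribosomal protein genes, beside 13.9% of all genes tested. Mrpl18 fell by 0.64 (SE 0.11), Mrpl32 rose by 0.54 (SE 0.11) and Mrps27 fell by 0.52 (SE 0.12). All 13 mitochondrially encoded genes are listed at 0 in every library.

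Genes of the integrated stress response, on a list chosen with earlier results of these data known, rose in the same libraries. All 10 on the list rose (median log2 fold change 2.77), as did 16.1% of all genes tested. With the list so chosen, the count is a description, and the part of this response in the synthetase differences was not tested. The summed level of the 10 was 3531 to 4242 CPM in KO-labelled and 848 to 1188 CPM in Ctrl libraries. It was lowest in KO-labelled 2 and highest in Ctrl 4 of their groups. Atf4 itself rose by 0.97 (SE 0.12), and Asns, which makes asparagine, the substrate of the Nars product, by 2.87 (SE 0.13). The largest rises of the list were those of Trib3 (6.03), a pseudokinase, Chac1 (5.05), which degrades glutathione, and Atf3 (2.92), a stress-induced transcription factor.

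Genes listed as markers of other cell types also differed between the groups, where 16.1% of all genes tested rose and 13.9% fell. Of 6 astrocyte markers 5 rose, with a median log2 fold change of 1.44, beside 0.00 for all genes tested and 1.23 for the cytosolic synthetases. Gfap had 70.6 ± 11.7 CPM in KO-labelled and 7.40 ± 3.14 CPM in Ctrl libraries (log2 fold change 3.26, SE 0.22), and Aqp4 rose by 1.77 (SE 0.13). S100b rose too, with 89.5 ± 10.2 CPM in KO-labelled and 19.53 ± 1.56 CPM in Ctrl libraries (edgeR adjusted p = 3.29e-09). The astrocyte markers' summed level, most of it Slc1a3, was 1990.3 to 2130.1 CPM in KO-labelled and 1172 to 1479 CPM in Ctrl libraries. Of 4 mesenchymal markers tested 3 fell. The list's sum, most of it Col3a1, was 9.70 to 12.2 CPM in KO-labelled and 29.5 to 77.6 CPM in Ctrl libraries. It was highest in Ctrl 4. Muscle markers summed to 27.1 to 33.5 CPM in KO-labelled and 43.8 to 54.8 CPM in Ctrl libraries (2 of 5 tested fell). Myh8 was the largest part of that sum in every library. Endothelial markers, mostly Kdr, summed to 2.05 to 5.05 CPM in KO-labelled and 5.81 to 12.03 CPM in Ctrl libraries (1 of 2 tested fell). Neuron markers went both ways (2 of 8 rose and 2 fell), as did oligodendrocyte markers (3 of 6 rose and 1 fell), whose transcription factor Olig2 was abundant in both groups at 1206 ± 85.6 CPM in KO-labelled and 1379.7 ± 64.4 CPM in Ctrl libraries. Microglial and erythroid markers summed to at most 5.10 CPM in any library, with Hba-a1 at 0 throughout. Whether these markers came from other cells or from the progenitors themselves was not tested. The part of other cells in the synthetase differences was not tested either.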

How the data were processed

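RNA-seq was done on 8 libraries. The deposited table gives read counts, in whole numbers, for each gene symbol. CASAVA, HTSeq 0.6.1p1, mm9 and NCBIM37 are named, per the submitters' processing notes, and a stranded total RNA kit, per the labels' protocols. The sources used here name no aligner, strand setting or treatment of shared reads.

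After filterByExpr and TMM scaling, edgeR 4.0.16 (quasi-likelihood, group as the only term, R 4.3.3) was run across all 15021 genes left, with p-values adjusted by Benjamini-Hochberg (threshold 0.05). The SE is the log2 fold change over the square root of F. Pair ratios used a pseudocount of 0.5 and exact permutation over libraries. Both were tested on simulated data. Alternatives were DESeq2 1.42.0, limma 3.58.1 voom, robust dispersion, RLE and upper-quartile scaling, no count filter, a replicate block and leaving out each library.

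The members and lists were chosen with earlier results of these data known. Values by library are given for the 5 largest rises and falls past the threshold per class, the member nearest 0 per class, Gars, Kars and Qars, and, chosen after their values were seen, Farsa and Farsb. From the other pathway lists, up to 3 genes past the threshold with the largest change are named, or the most abundant where none passed. Atf4, Asns, Tarsl2, Aimp2, Eef1e1, Ddit3 and the single cell type markers were added after their values were seen. Libraries of a group differed by more than sampling noise (chi-square per degree of freedom 4.45 to 36.2), so none was treated as a library deposited more than once; this does not show that they are independent.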

Additional observations from a re-analysis of the deposited data

Results flagged for a closer look

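In 5 of the 72 sets of 4 libraries (36 genes in each group), 1 library stood apart from the other 3 by Dixon's test at the 95% level. Chance alone flags about 1 in 20 such sets. Hars2 had 26.6 CPM in KO-labelled 4, against 30.2 to 30.6 CPM in the other KO-labelled libraries, and Rars2 had 11.5 CPM in KO-labelled 2, against 10.7 CPM in each of the others. Among Ctrl libraries, Eprs had 573.8 CPM in Ctrl 4, against 484.5 to 489.3 CPM in the others, and Lars had 259.8 CPM in Ctrl 4, against 197.8 to 207.7 CPM in the others. Mars had 20.6 CPM in Ctrl 3, against 24.9 to 25.7 CPM in the others. Without Ctrl 4, and without Ctrl 3, the same number of cytosolic genes rose, 15.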

How the results depend on the processing

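The 15 rises among cytosolic genes became 16 with limma voom and without Ctrl 1, by the addition of Vars, and their number was 15 under the other alternatives; none fell under any. Leaving out 1 library gave 15 to 16 rises. The 2 falls among mitochondrial genes became 1 with no count filter and with the replicate block, and 1 to 2 when a library was left out, each time by the loss of Mars2; the rise of Nars2 was kept throughout. The cytosolic median ran from 1.16 to 1.38 over the alternatives and the mitochondrial median from -0.06 (upper-quartile scaling) to 0.05 (limma voom), so its sign depends on the setting. Of 540 refitted member values, 530 stayed on the same side of the threshold and no called value changed sign, though some genes that did not pass did (Farsa ran from -0.09 to 0.05); 8 lost a call (all Mars2) and 2 gained one (both Vars). Of the pair ratios, 13 passed with a pseudocount of 1 and 12 to 14 when a library was left out. With the replicate block, a sign-flip test of 4 differences, 0 passed, since its smallest p is 0.125. Shared replicate numbers were not treated as pairs: the correlation of deviations between libraries of one number was 0.25, 0.28, -0.16 and 0.01 for numbers 1 to 4, and only KO-labelled 1 and 2 correlated best with their own number. Fars2, Pars2 and Cars2, with the lowest mean CPM of the members, had SE of 0.19 to 0.24; the parts of counting error and of spread between libraries in these were not tested.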
